A study of Rattus norvegicus with 192 samples.

Results

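The 9 genes described here are Pck1, Tat, Igfbp1, Fkbp5, Tsc22d3, Per1, Sgk1, Klf9 and Mt2A, a set given by name as gluconeogenic and glucocorticoid receptor genes. A gene was found by its symbol in the row names of the count table, and each gene found had 1 probe. Probes of 7 of the 9 genes, out of 21143 symbols in all, were found and described, and Tsc22d3 and Per1 were not analysed here. All 7 probes passed the filter on low counts, which left 11055 of 22253 probes.

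Gluconeogenesis is the synthesis of glucose from lactate, glycerol and amino acids, which the liver carries out in fasting. Glucagon drives it through cyclic AMP, glucocorticoids drive it through the glucocorticoid receptor, a nuclear receptor that binds DNA once it has bound hormone, and insulin opposes both. Pck1 encodes the cytosolic phosphoenolpyruvate carboxykinase of that pathway and Tat the tyrosine aminotransferase that breaks down tyrosine. Both are classic targets of glucocorticoids and of cyclic AMP in rat liver. Igfbp1 encodes a secreted protein that binds insulin-like growth factors, and insulin represses its transcription. Fkbp5 encodes a co-chaperone that lowers the receptor's affinity for hormone and that the receptor itself induces. Sgk1 encodes a kinase, Klf9 a zinc-finger transcription factor, and both are induced by glucocorticoids in many cell types. Mt2A encodes a metallothionein, a small metal-binding protein induced by metals, by oxidative stress and by glucocorticoids.

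Male rat primary hepatocytes on collagen-coated plates were exposed for 24 h, and RNA was read with TempO-Seq, in which a pair of DNA probes is ligated on each targeted transcript and counted by sequencing. The 29 chemicals tested over 6 doses were the azole fungicides cyproconazole, flusilazole, hexaconazole, imazalil, tetraconazole, triadimefon, triflumizole and triticonazole; the chloroacetamide herbicides acetochlor, alachlor and dimethenamid; the triazine herbicides ametryn and simazine; the perfluorinated acids PFOA and PFOS; and Bensulide, Bisphenol A, carbaryl, cyclanilide, cyprodinil, DEHP (di-2-ethylhexyl phthalate), dichlobenil, dithiopyr, etoxazole, fludioxonil, isoxaflutole, oxadiazon, S-Bioallethrin and triclosan. Doses stood about 3-fold apart, with a top dose of 100 µM for 16 chemicals and of 33.3 µM for 13, and each dose had 1 library. Single doses of 9 reference chemicals had 1 library each. These were 17beta-estradiol, dexamethasone and testosterone at 10 µM, GW 4046 and TCPOBOP at 1.5 µM, oltipraz at 30 µM, pregnenolone-16alpha-carbonitrile and WY-14,643 at 15 µM, and sulforaphane at 10 µM. The 9 control libraries had the vehicle DMSO (0.1%), 3 on each of 3 plates. The labels give neither strain nor age nor medium, so whether the cultures contained a glucocorticoid or insulin is not known here. Nor do they tell whether wells came from different animals or cultures, and the p-values therefore speak of library-to-library scatter alone, some or all of it technical.

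Library totals ranged over 582071 to 11249014 counts, and values are CPM (the count over the library's total, on the usual scale). DMSO replicate 1 stood apart: its log2 CPM correlated with the other DMSO libraries at 0.733 to 0.844, against 0.914 to 0.987 among DMSO replicates 2 to 9. It was left out of the main tests, and results with it are given beside them. The 8 hepatocyte markers, among them Alb and Ttr, summed to 16441 to 52619 CPM in treated libraries and to 31175 to 51797 CPM in DMSO replicates 2 to 9. Ttr was the largest and most variable part, at 17548 ± 6729 CPM (SD, 13083 to 33882) in these DMSO libraries, against 4934 ± 199 CPM for Alb. A sum quoted below therefore does not say which of the 8 markers moved. Macrophage markers summed to 31.7 to 149.98 CPM in treated libraries and 44.5 to 80.6 CPM in these DMSO libraries, endothelial markers to 5.98 to 34.3 and 10.5 to 18.2 CPM, stellate cell markers to 7.27 to 72.2 and 9.73 to 14.7 CPM, and bile duct markers to 8.86 to 127 and 16.0 to 29.2 CPM. In the stellate list only Col1a1, which marks activated stellate cells, was at 0 counts in all 8, and in the bile duct list only Krt7. Des and Krt19 of these lists were at 0 in 7 of the 8. Reln, also in the stellate list, averaged 7.57 CPM and Epcam, in the bile duct list, 20.9 CPM, both at 0 in none of the 8. In bulk RNA, fewer cells and less RNA per cell cannot be told apart.

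The starts of 4 genes are printed because their transcripts moved with the chemicals or moved together, and because each holds letters known from the regulation of these genes. Each is the 250 bases before the transcription start on the gene's own strand, from RefSeq on the rat build GRCr8. Capitals in Pck1 mark TTACGTCA, a form of the cyclic AMP response element, which begins 93 bases before the start. Capitals in Igfbp1 mark CAAAACA, the core of an insulin response sequence, 121 bases before the start. Capitals in Mt2A and Mt1 mark the core of the metal response element, TGCGCNC or TGCACNC, on either strand. Pck1 lies at chr3:182348322-182348571 on the plus strand, Igfbp1 at chr14:86261027-86261276 on the plus strand, Mt2A at chr19:10838709-10838958 on the minus strand and Mt1 at chr19:10832976-10833225 on the minus strand.
Pck1: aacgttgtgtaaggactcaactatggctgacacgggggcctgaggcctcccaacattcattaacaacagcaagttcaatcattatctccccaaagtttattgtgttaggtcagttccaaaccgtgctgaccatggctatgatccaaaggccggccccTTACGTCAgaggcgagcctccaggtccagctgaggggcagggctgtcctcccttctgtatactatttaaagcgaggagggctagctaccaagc
Igfbp1: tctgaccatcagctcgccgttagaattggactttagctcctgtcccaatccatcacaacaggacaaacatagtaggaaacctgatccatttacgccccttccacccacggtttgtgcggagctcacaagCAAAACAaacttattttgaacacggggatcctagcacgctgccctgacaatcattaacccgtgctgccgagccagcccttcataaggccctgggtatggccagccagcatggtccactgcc
Mt2A: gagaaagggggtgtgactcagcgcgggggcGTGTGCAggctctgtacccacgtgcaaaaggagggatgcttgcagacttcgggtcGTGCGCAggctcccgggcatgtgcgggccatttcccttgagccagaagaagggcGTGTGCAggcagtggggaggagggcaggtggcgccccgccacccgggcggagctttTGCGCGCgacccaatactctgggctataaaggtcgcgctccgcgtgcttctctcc
Mt1: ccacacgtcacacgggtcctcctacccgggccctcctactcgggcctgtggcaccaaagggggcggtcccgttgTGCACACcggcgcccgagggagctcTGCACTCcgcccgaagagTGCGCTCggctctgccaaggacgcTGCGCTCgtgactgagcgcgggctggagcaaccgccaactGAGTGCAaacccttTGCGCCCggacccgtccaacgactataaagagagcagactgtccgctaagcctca
All 7 probed genes had a window among the 33469 searched on both strands. The cyclic AMP response element, as TGACGTCA or TTACGTCA, was in 2.32% of all windows and in 1 of the 7, that of Pck1. The insulin response core CAAAACA was in 5.46% of windows and in 1 of the 7, that of Igfbp1. At least 1 metal response core was in 20.6% of windows, at least 4 in 0.266% (Mt2A has 4) and at least 6 in 0.0269% (Mt1 has 6). The glucocorticoid response element, as GNACA and TGTNC with NNN between them, was in 0.373% of windows and in 0 of the 7. TATAAA, the TATA box, was in 12.9% of windows and in 2 of the 7, those of Sgk1 and Mt2A. A match is a description of letters and not a bound site, and no match says only that these letters are not in this window.

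In the solvent libraries the 7 genes differed in how tightly they were held. Fkbp5 was the steadiest of the 7, at 563 ± 27.1 CPM (SD, n = 8 DMSO libraries, 506 to 600 CPM). Tat was at 79.2 ± 7.43 CPM (70.0 to 93.2), Klf9 at 14.6 ± 1.597 CPM (12.5 to 16.4), Sgk1 at 35.4 ± 4.29 CPM (27.5 to 42.4) and Pck1 at 4.396 ± 0.629 CPM (3.59 to 5.40), each over the same 8 libraries. Igfbp1 at 558 ± 157 CPM (353 to 755) and Mt2A at 144 ± 55.4 CPM (81.2 to 251) spread most. Pck1 rested on few reads, 12 to 46 counts per DMSO library, which limits what a fall in it can show. In CPM, DMSO replicate 1 was lower than the lowest of the other 8 in all 7 genes. It had 2.0 CPM of Pck1, 6.36 of Tat, 342 of Igfbp1, 395 of Fkbp5, 15.5 of Sgk1, 1.45 of Klf9 and 58.7 of Mt2A. Its scaling factor by edgeR's TMM method was 0.547 over all libraries, against 0.943 to 1.04 in DMSO replicates 2 to 9. Scaling by TMM, which the tests use, sets its values higher against the other 8 than CPM does. The low CPM is therefore not a low level on the scale of the tests for every gene. Across the 3 plates of DMSO replicates 2 to 9, edgeR's quasi-likelihood test called 0 of the 7 genes and 0 of 11055 probes (a share of 0%), with 472 probes at an unadjusted p under 0.05; DESeq2 called 11 probes and 0 of the 7. Igfbp1 averaged 397, 522 and 702 CPM on plates 1, 2 and 3 (unadjusted p = 0.0246) and Mt2A 124, 107 and 195 CPM (unadjusted p = 0.0234), both with an adjusted p of 0.855 in edgeR. Because probes capture their targets unequally, levels of different genes are not compared with each other.

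Over the dose libraries, Fkbp5 was mostly below its solvent level, and Mt2A and Igfbp1 were often above theirs. A library was counted as outside when it was above the highest or below the lowest of DMSO replicates 2 to 9, which held for 11.2% (above) and 11.5% (below) of all pairs of a probe and a library. Fkbp5 was below in 100 dose libraries (57.5%) and above in 7, and only 0.896% of tested probes were below as often. Igfbp1 was above in 77 and below in 4, Mt2A above in 58 and below in 0, and Tat above in 52 and below in 21. Pck1 lay on both sides, above in 48 and below in 48, and so did Klf9 (44 and 27) and Sgk1 (38 and 12). With DMSO replicate 1 in the range, Fkbp5 was below in 18 dose libraries, Pck1 in 7, Igfbp1 in 2, Sgk1 in 1 and Tat and Klf9 in 0. The counts above did not change for any of the 7. All these counts use CPM, which leaves out the TMM factor of 0.547 of DMSO replicate 1. Few departures were large: at least 2-fold outside the range on CPM + 1, 9 of 1218 pairs of a gene and a dose library were above (0.181% over all probes) and 8 below (0.634% over all probes).

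The trend over doses was then tested for each chemical, since each dose had 1 library. The trend is reported as the fitted log2 change at 33.3 µM from the slope on log2(1 + dose), with its standard error (SE), and all adjusted p-values are from edgeR's quasi-likelihood test with Benjamini-Hochberg adjustment over 11055 probes. Fits over dose, here and below, have a term for plate, so a change is set against the DMSO libraries of the chemical's own plate. These were DMSO replicates 2 and 3 on plate 1, 4 to 6 on plate 2 and 7 to 9 on plate 3. Libraries of the other plates add only to the estimate of scatter. Every chemical but simazine was on 1 plate. Comparisons share their DMSO libraries, so they are not independent. Of 203 pairs of a gene and a chemical, 15 passed an adjusted p of 0.05, 8 higher and 7 lower, in 10 of the 29 chemicals. That share, 7.39%, stands beside 1.66% over all probes and chemicals (0.95% higher and 0.713% lower). At an unadjusted p under 0.05, 47 pairs were higher and 22 lower, and DESeq2 called 29 pairs, 18 higher and 11 lower. Most called trends depended on the top dose, which was 1 library: without the highest dose of every chemical, 1 of these 15 passed (Fkbp5 with dithiopyr), and 3 of the 203 pairs in all.

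**Figure D1:**
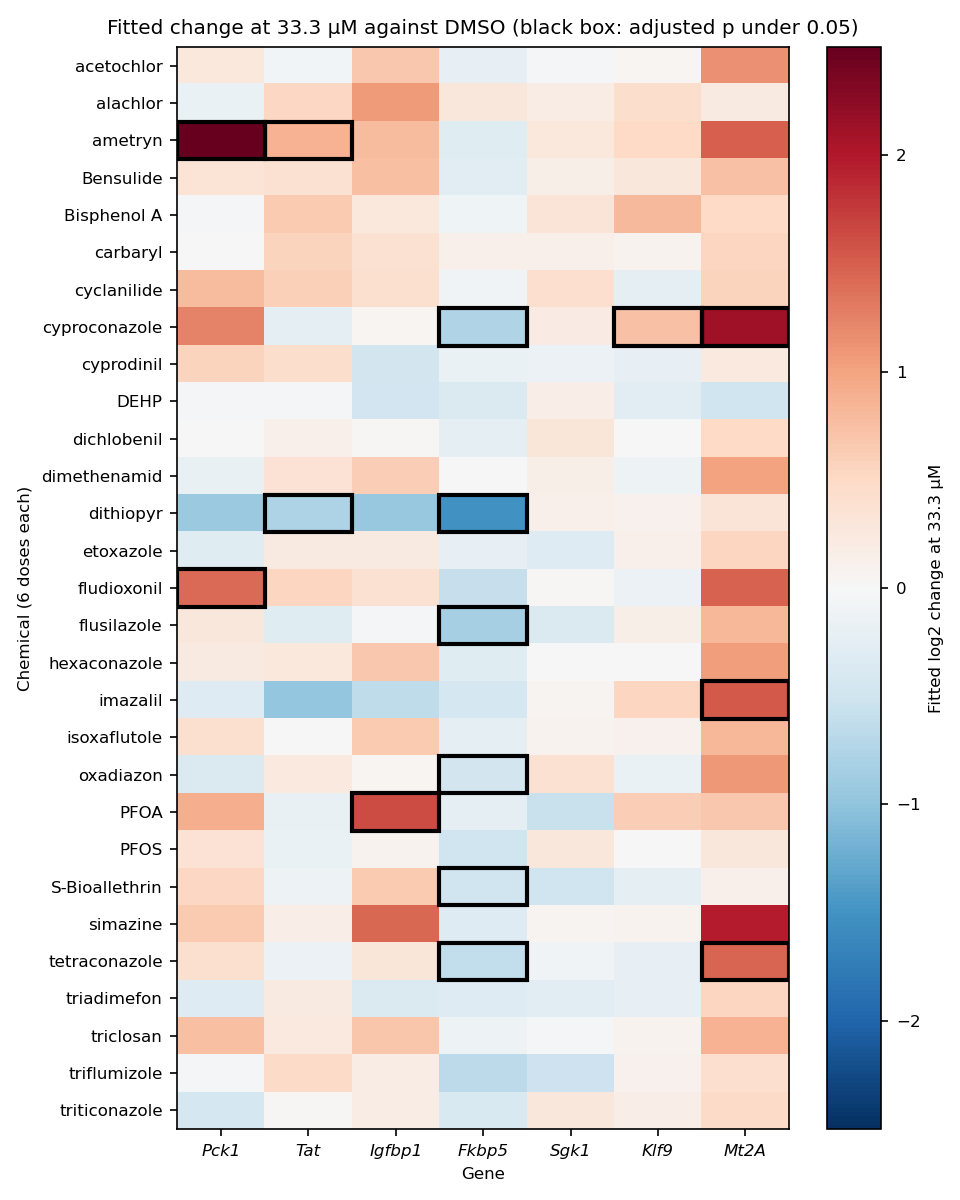
Fitted log2 change at 33.3 µM against DMSO for each of 29 chemicals (rows) and 7 genes (columns), in fits with a term for plate. DMSO replicate 1 was left out. Red is higher, blue is lower and a box marks an adjusted p under 0.05. Fkbp5 is mostly blue and Mt2A mostly red, and the boxes number 15.

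Pck1, the gluconeogenic carboxykinase, was at most 30.6 CPM and at least 0.832 CPM over the dose libraries, with a median of 4.37 CPM. It rose with ametryn and with fludioxonil in edgeR, and DESeq2 called 3 rises and 0 falls. Over rising doses of ametryn (0.14, 0.4, 1.2, 3.7, 11.1 and 33.3 µM) Pck1 was at 3.91, 4.07, 3.98, 5.06, 8.46 and 28.6 CPM, against 3.59 to 5.40 CPM in the 8 DMSO libraries. The 4 lower doses lay inside the DMSO range and the highest 2 above it. The fitted change was 2.51 ± 0.32 (SE, adjusted p = 0.00563), where 0.769% of probes were called with ametryn. It was 2.46 with all 9 DMSO libraries (adjusted p = 0.0139), and 1.25 without the 33.3 µM library (adjusted p = 0.461).

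Over rising doses of fludioxonil (0.4, 1.2, 3.7, 11.1, 33.3 and 100 µM) Pck1 was at 4.21, 3.38, 6.84, 8.70, 8.39 and 14.6 CPM. The highest 4 doses all lay above the DMSO range. Over dose the change was 1.41 ± 0.21 (SE, adjusted p = 0.0213), with 0.0724% of probes called. The adjusted p was 0.734 without the 100 µM library, 0.08 without DMSO replicate 4, 0.0856 without DMSO replicate 6 and 0.0931 with all 9 DMSO libraries.

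In 2 other chemicals Pck1 was lowest at the dose next to the top, without a called trend. With cyproconazole it was at 6.36, 5.32, 3.29, 1.74, 0.977 and 30.6 CPM over 0.4 to 100 µM, and the top dose held the highest Pck1 level of all dose libraries. That library had 1340300 counts, the lowest total of the dose libraries, and 19379 CPM of hepatocyte markers, against 31175 to 51797 CPM in DMSO. Of all probes, 21.9% lay at least 2-fold outside the DMSO range in it. With Bisphenol A, Pck1 was at 5.19, 2.88, 3.86, 1.39, 0.832 and 7.11 CPM over 0.14 to 33.3 µM. The lowest Pck1 of all dose libraries stood at 11.1 µM. In that library 7.35% of probes lay at least 2-fold outside the DMSO range, most of them below it. The share was 2.75% at 3.7 µM and 0.579% at 33.3 µM. The part of this library-wide shift in the low Pck1 was not tested. These 2 series were picked out after their values were seen.

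**Figure D2:**
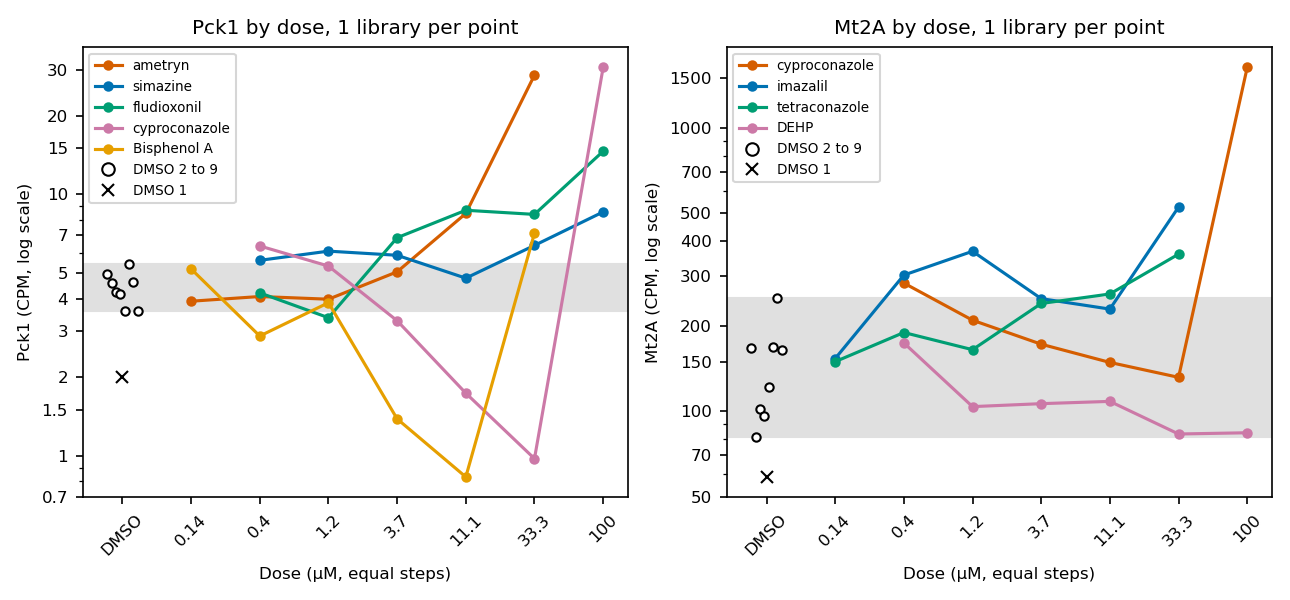
CPM of Pck1 (left) and Mt2A (right) on log axes over the doses of selected chemicals, with DMSO replicates 2 to 9 at the left of each panel. Pck1 reaches 28.6 CPM at the top dose of ametryn and 30.6 CPM at that of cyproconazole, and Mt2A reaches 1637 CPM at the top dose of cyproconazole.

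Tat, the tyrosine aminotransferase, rose with ametryn and fell with dithiopyr in edgeR, while DESeq2 called 4 rises and 1 fall. Over its dose libraries it spanned 14.2 to 155 CPM with a median of 86.5 CPM. With ametryn it was at 90.9, 87.2, 92.1, 87.7, 137 and 155 CPM over rising doses, against 70.0 to 93.2 CPM in DMSO, so that the highest 2 doses lay above the DMSO range as they did for Pck1. On the fitted slope it changed by 0.86 ± 0.15 (SE, adjusted p = 0.0234). It was not past the threshold without the 33.3 µM library (0.82, adjusted p = 0.386), without DMSO replicate 2 (0.0573) or 3 (0.0784), or with all 9 DMSO libraries (0.571).

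With dithiopyr, where 13% of probes were called, Tat was at 93.0, 67.3, 90.02, 84.2, 57.6 and 55.5 CPM over 0.14 to 33.3 µM. The highest 2 doses and the 0.4 µM dose lay below the DMSO range. Its fitted change came to -0.76 ± 0.21 (SE, adjusted p = 0.0264). It was -0.76 without the 33.3 µM library (adjusted p = 0.379), -0.71 without the 0.14 µM library (0.0572), -0.65 without the 11.1 µM library (0.0849) and -0.39 with all 9 DMSO libraries (0.718). The lowest Tat of all dose libraries, 14.2 CPM, was at 33.3 µM imazalil, where the other 5 doses lay at 73.9 to 106 CPM and the trend was not called. The imazalil library at 33.3 µM held 16587 CPM of hepatocyte markers and 149.98 CPM of macrophage markers, against at most 80.6 CPM of the macrophage markers in DMSO, and their part in these values was not tested.

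Igfbp1, the insulin-repressed binding protein, was above its DMSO range in 16 of 29 libraries at 0.4 µM and in 8 of 16 at 100 µM. Its median was 758 CPM at 0.4 µM and 716 CPM at 100 µM, against a DMSO range of 353 to 755 CPM. It rose with PFOA alone in edgeR and in 3 chemicals in DESeq2. With PFOA it was at 1076, 700.1, 717, 621, 791 and 3093 CPM over 0.4 to 100 µM. The 100 µM library was the highest of all dose libraries and the 0.4 µM library was the next highest of the 6, so the order did not follow dose. This gave a change of 1.63 ± 0.35 (SE, adjusted p = 0.0192), with 3.74% of probes called. It was 0.28 without the 100 µM library (adjusted p = 0.728), not past the threshold without DMSO replicate 4 (0.0578) or 6 (0.0584), and 1.63 with all 9 DMSO libraries (0.0411). In the 100 µM PFOA library 25.6% of probes lay at least 2-fold outside the DMSO range, and the library scored 1.83 along the direction that sets DMSO replicate 5 (a score of 1) apart from DMSO replicates 4 and 6. Igfbp1 correlated with that score over the 182 dose and DMSO libraries (r = 0.48). With the score as a covariate the change with PFOA was 0.83 ± 0.22 (SE, adjusted p = 0.0233). The lowest Igfbp1 of the dose libraries, 139 CPM, was again at 33.3 µM imazalil.

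Fkbp5, the receptor's co-chaperone, was the gene most often called, with 6 falls and 0 rises in edgeR and 10 falls and 0 rises in DESeq2. Its fitted change was negative in 26 of 29 chemicals, which 4.11% of probes matched, and 0.389% of probes were called lower in as many trends. Chemicals on a plate share its DMSO libraries, so these directions are not independent. The median over chemicals was -0.30, against -0.01 for all probes and chemicals. Over the dose libraries Fkbp5 had 190 CPM at 100 µM cyproconazole, a median of 494 CPM and 712 CPM at 100 µM carbaryl. Its median per dose was 507 CPM at 0.14 µM (6 of 13 libraries below the DMSO range), 524 at 0.4 µM (11 of 29), 513 at 1.2 µM (13 of 29), 511 at 3.7 µM (13 of 29), 485 at 11.1 µM (21 of 29), 457 at 33.3 µM (22 of 29) and 427 at 100 µM (14 of 16), against 570.5 CPM in DMSO. Even at the lowest doses the medians stood near the lower end of the DMSO range, and they were lower still at 11.1 µM and above.

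The steepest fall of Fkbp5 was with dithiopyr, a pyridine herbicide, where it was at 480.2, 485, 450.3, 379, 279.8 and 207 CPM over 0.14 to 33.3 µM. All 6 doses lay below the DMSO range of 506 to 600 CPM, and the highest 4 were in dose order. In edgeR the change was -1.505 ± 0.15 (SE, adjusted p = 5.71e-05). It passed under each alternative run, including the fit without the highest dose, the fit with all 9 DMSO libraries (-1.62, adjusted p = 0.00301) and the fit over dose libraries alone. The sum of hepatocyte markers was 16441 CPM at 33.3 µM dithiopyr and 25495 CPM at 11.1 µM, and 31342 to 38050 CPM at the other 4 doses.

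With flusilazole, a triazole fungicide, Fkbp5 was at 529.9, 497, 464, 421, 378 and 310.1 CPM, falling at every step and below the DMSO range from 0.4 µM on. The fitted change was -0.83 ± 0.13 (SE, adjusted p = 0.00664), with 0.588% of probes called. The adjusted p was 0.455 without the 33.3 µM library and 0.334 with all 9 DMSO libraries. With cyproconazole, also a triazole, Fkbp5 was at 484, 517, 492, 454, 482 and 190 CPM, so that only the top dose stood far below DMSO. Over dose the change was -0.76 ± 0.20 (SE, adjusted p = 0.0295), with 8.95% of probes called, and -0.31 without the 100 µM library (adjusted p = 0.438). It was -0.77 with all 9 DMSO libraries (adjusted p = 0.128).

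The other 3 falls were smaller. With tetraconazole Fkbp5 was at 533, 531, 551, 485, 405 and 348 CPM and the fitted change was -0.61 ± 0.13 (SE, adjusted p = 0.0495, 0.461% of probes called). It did not pass without DMSO replicate 2 or 3, or without any 1 of the dose libraries, with adjusted p up to 0.9999 in the fit without 33.3 µM. With oxadiazon, an oxadiazolone herbicide, it was at 555, 553, 553, 479, 424 and 394 CPM and changed by -0.46 ± 0.11 (SE, adjusted p = 0.0417, 1.33% of probes called). That call was lost without the 100 µM library (-0.41, adjusted p = 0.69), with adjusted p of 0.0554 to 0.0685 without DMSO replicate 4 or 6 or without the library at 0.4, 1.2, 3.7 or 33.3 µM. With S-Bioallethrin, a pyrethroid, it was at 435.5, 500.9, 462, 485, 392 and 319.9 CPM and changed by -0.50 ± 0.12 (SE, adjusted p = 0.0353, 2.93% of probes called). That call was lost without the 100 µM library (-0.40, adjusted p = 0.21), with adjusted p of 0.0502 to 0.12 without DMSO replicate 4 or 6 or without the library at 1.2, 3.7 or 33.3 µM. With all 9 DMSO libraries none of these 3 passed (adjusted p = 0.706, 0.63 and 0.343).

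**Figure D3:**
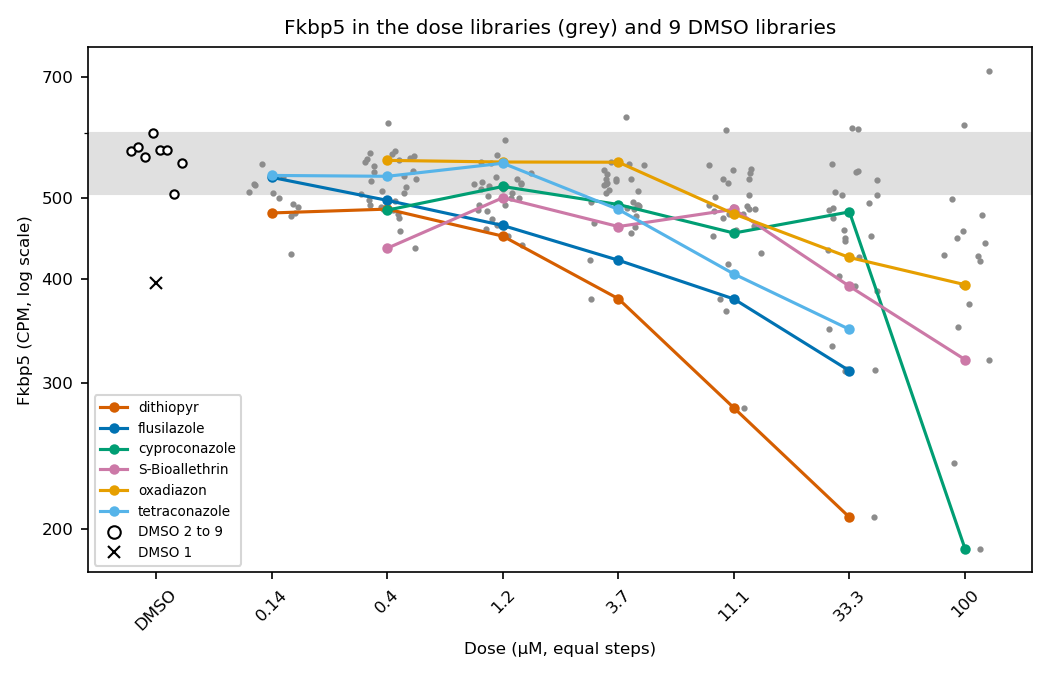
CPM of Fkbp5 in the dose libraries (grey points) by dose in µM on a log axis, with the DMSO libraries at the left and the 6 chemicals with a called fall as lines. The DMSO replicates 2 to 9 lie at 506 to 600 CPM and the line of dithiopyr ends at 207 CPM.

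Sgk1, the kinase, was called in 0 of 29 trends by edgeR, with 2 higher and 3 lower at an unadjusted p under 0.05, and in 0 by DESeq2. It spanned 13.4 CPM at 100 µM PFOA, a median of 38.0 CPM and 57.8 CPM at 100 µM oxadiazon. Klf9, the transcription factor, rose with cyproconazole, where it was at 11.96, 14.2, 15.7, 15.3, 22.2 and 33.6 CPM, against 12.5 to 16.4 CPM in DMSO. The highest 2 doses lay above the DMSO range. On the fitted slope it changed by 0.74 ± 0.20 (SE, adjusted p = 0.0332) and 0.44 without the 100 µM library (adjusted p = 0.522). The adjusted p was 0.0583 without DMSO replicate 4, 0.0643 and 0.06 without the 0.4 and the 1.2 µM library, and 0.328 with all 9 DMSO libraries.

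Mt2A, the metallothionein, was fitted higher in 28 of 29 chemicals, which 0.425% of probes matched, and was called higher in 3 by edgeR, which 1.75% of probes matched, and in 7 by DESeq2. Its median fitted change was 0.68. These directions are not independent, as chemicals on a plate share its DMSO libraries. The DMSO means of Mt2A were 124, 107 and 195 CPM on plates 1, 2 and 3. The DMSO libraries spread most for this gene, and 58 dose libraries (33.3%) exceeded the highest of them. The exception in direction was DEHP, with 175, 104, 107, 109, 83.2 and 84.1 CPM over 0.4 to 100 µM, the highest 2 doses near the lowest DMSO library (81.2 CPM).

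With tetraconazole Mt2A was at 149.9, 189.9, 165, 240.4, 259.8 and 359 CPM over 0.14 to 33.3 µM, against 81.2 to 251 CPM in DMSO, so that only the highest 2 doses lay above. Its fitted change came to 1.45 ± 0.26 (SE, adjusted p = 0.0211). The adjusted p was 0.678 without the 33.3 µM library, 0.0562 and 0.0568 without the 0.14 and the 11.1 µM library, and 0.135 with all 9 DMSO libraries.

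With imazalil, where 10.5% of probes were called, Mt2A was at 154, 303, 368, 250.1, 229.7 and 526.3 CPM, above the DMSO range at 0.4, 1.2 and 33.3 µM. This gave a change of 1.54 ± 0.45 (SE, adjusted p = 0.0423) and 1.07 without the 33.3 µM library (adjusted p = 0.9999). The adjusted p was 0.0886 and 0.062 without DMSO replicate 2 and 3, 0.0752 without the 0.14 µM library, and 0.105 with all 9 DMSO libraries.

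With cyproconazole Mt2A was at 284, 210, 173, 149, 132 and 1637 CPM over 0.4 to 100 µM. It was lower at each step up to 33.3 µM and then the highest of all dose libraries at 100 µM. In edgeR the change was 2.12 ± 0.44 (SE, adjusted p = 0.0125) and rested on that 1 library, being -0.08 without it (adjusted p = 0.986). With all 9 DMSO libraries it was 2.11 (adjusted p = 0.0283). The same library had the highest levels of Pck1 and Klf9 and the lowest of Fkbp5 among all dose libraries. In it 21.9% of all probes lay at least 2-fold outside the DMSO range. Stellate cell markers summed to 64.9 CPM and endothelial markers to 34.3 CPM, against at most 14.7 and 18.2 CPM in DMSO replicates 2 to 9. The part of this library-wide shift in the values of these genes was not tested.

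Chemicals of a class were also fitted together. Of 28 pairs of a gene and a class, 5 passed, 4 higher and 1 lower, beside 7.64% of all pairs of a probe and a class (3.41% higher and 4.23% lower). Over the 8 azoles (26.2% of probes called) Fkbp5 fell by 0.51 (SE 0.07, adjusted p = 1.65e-07). That call held in every alternative run for classes, all 9 DMSO libraries and the fit without the highest dose among them. A fit over dose libraries alone was not run for classes. Mt2A rose by 0.88 ± 0.18 over the azoles (SE, adjusted p = 0.000282), and by 0.35 without the highest doses (adjusted p = 0.603). Over the 2 triazines (2.8% of probes called) Pck1 rose by 1.74 ± 0.22 (SE, adjusted p = 0.000648), Tat by 0.53 ± 0.09 (0.00348) and Mt2A by 1.57 ± 0.39 (0.0352). Without the highest doses the 3 triazine changes were 1.005, 0.48 and 2.08, with adjusted p of 0.174, 0.179 and 0.18. Mt2A did not pass without DMSO replicate 2 (0.0892) or 3 (0.0928), nor Tat with all 9 DMSO libraries (0.219). The chloroacetamides (0.0905% of probes called) and the perfluorinated acids (1.5%) had 0 of the 7 genes called by edgeR or by DESeq2, with 2 and 3 at an unadjusted p under 0.05.

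Related chemicals were set against each other at matched doses in 4 differences, and 2 of the 28 pairs of a gene and a difference passed, 1 higher and 1 lower, beside 1.1% of all pairs of a probe and a difference (0.669% and 0.427%). PFOA and PFOS are perfluorinated chains with the same number of carbons that end in a carboxylic acid in PFOA and a sulfonic acid in PFOS. Sgk1 was at 24.4, 38.9, 18.8, 24.9, 22.4 and 13.4 CPM over 0.4 to 100 µM PFOA and at 42.4, 38.9, 42.0, 38.1, 42.4 and 46.7 CPM at the same doses of PFOS. PFOA was lower at 5 of the 6 doses and nearly equal at 1.2 µM, and 5 of its 6 libraries, but none with PFOS, lay below the DMSO range of 27.5 to 42.4 CPM. The difference of the fitted changes was -0.98 (95% interval -1.38 to -0.58, adjusted p = 0.00554, 4.03% of probes called), and it passed in every alternative run for differences. A fit over dose libraries alone was not run for differences. The gap was there at 0.4 µM, the PFOA values did not follow dose, and the Sgk1 trend was not called with PFOA. Igfbp1 was at 686, 737, 904, 808, 661 and 556 CPM with PFOS, beside the PFOA values given above. The difference was 1.38 (0.58 to 2.18, adjusted p = 0.046), and 0.06 without the 100 µM libraries (adjusted p = 0.936). The adjusted p for Igfbp1 was 0.105 with all 9 DMSO libraries and 0.0512 to 0.059 without any 1 of DMSO replicates 2, 3, 6, 7, 8 and 9. The other 5 genes were not called between PFOA and PFOS, and the interval for Fkbp5 was -0.18 to 0.57.

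**Figure D4:**
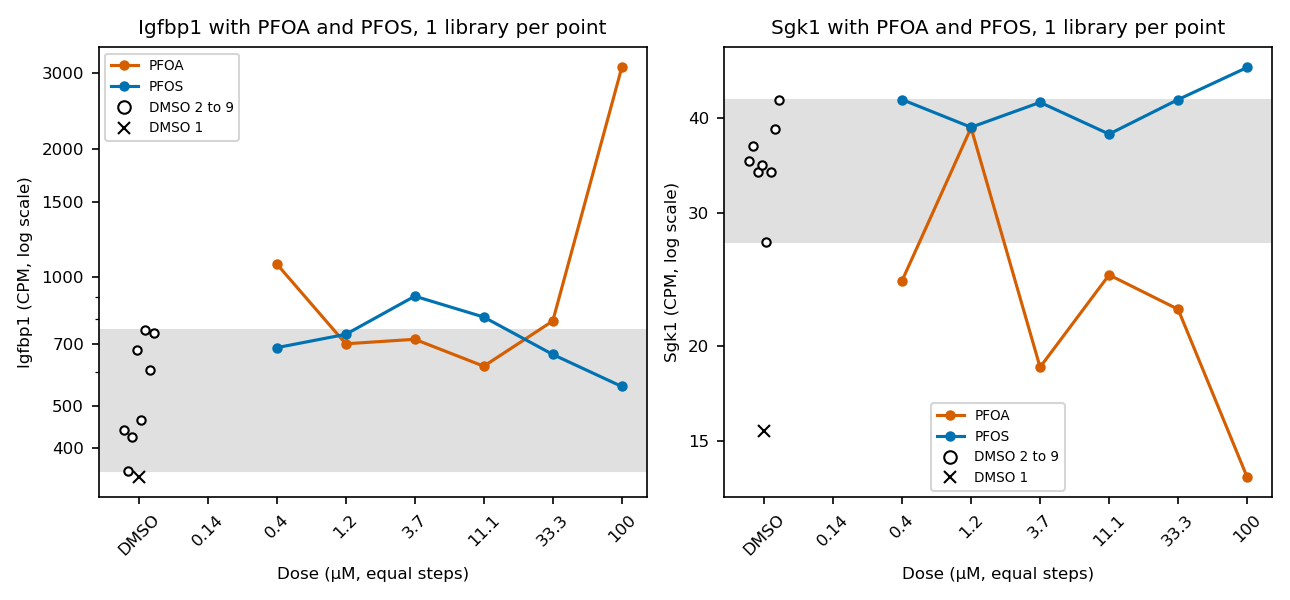
CPM of Igfbp1 (left) and Sgk1 (right) on log axes over 6 doses of PFOA and of PFOS in µM, with DMSO replicates 2 to 9 at the left of each panel. Sgk1 ends at 13.4 CPM with PFOA and 46.7 CPM with PFOS, and Igfbp1 at 3093 CPM with PFOA and 556 CPM with PFOS.

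Ametryn and simazine are triazines that differ in a methylthio group in place of chlorine and in an alkyl group on nitrogen. Simazine gave 5.60, 6.07, 5.86, 4.79, 6.39 and 8.58 CPM of Pck1 over 0.4 to 100 µM, and 75.9, 79.8, 77.4, 88.2, 92.0 and 103 CPM of Tat. At 33.3 µM, which both had, Pck1 was at 28.6 CPM with ametryn and 6.39 CPM with simazine. Over the 5 shared doses (0.4 to 33.3 µM) the difference did not pass for Pck1 (1.72, 95% interval 0.94 to 2.49, adjusted p = 0.13) or Tat (0.72, 0.42 to 1.01, adjusted p = 0.0935), where 0.00905% of probes were called by edgeR and DESeq2 called 1 of the 7, Tat. For Mt2A the interval was -1.51 to 1.30, so the difference could not be placed on either side. All 6 ametryn libraries and the 11.1, 33.3 and 100 µM simazine libraries were on plate 1, and the 3 lower doses of simazine were on plate 2, with plate as a term in the fit.

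Acetochlor and alachlor, chloroacetamides whose alkyl groups differ, were called apart in 0 of 7 genes by edgeR (1 at an unadjusted p under 0.05), in 0 by DESeq2 and in 0% of probes over 6 shared doses. The widest intervals were those of Mt2A (-0.08 to 1.70) and Igfbp1 (-1.18 to 0.55), and that of Sgk1 was -0.55 to 0.32. The imidazoles imazalil and triflumizole against the triazoles flusilazole, hexaconazole and tetraconazole, all on plate 1, were called apart in 0 of 7 genes by edgeR (0 at an unadjusted p under 0.05), in 0 by DESeq2 and in 0.353% of probes by edgeR. For Fkbp5 the difference was 0.01 (-0.17 to 0.20) and for Pck1 -0.20 (-0.77 to 0.37).

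The 9 reference chemicals were fitted together with DMSO replicates 2 to 9, the lone library being assumed to vary as DMSO does. With plate as a term in the fit, each change is set against the DMSO libraries of its own plate. The DMSO libraries of the other plates add only to the estimate of scatter. Of 63 pairs of a gene and a library, 14 passed, 7 higher and 7 lower, in 5 of the 9 libraries, beside 3.63% of all pairs of a probe and a library (1.29% higher and 2.34% lower). Dexamethasone, a synthetic agonist of the glucocorticoid receptor, was called in 0 of the 7 genes by edgeR (2 at an unadjusted p under 0.05) and in 0 by DESeq2. Its library had 2.72 CPM of Pck1, 82.4 of Tat, 458 of Igfbp1, 355 of Fkbp5, 39.7 of Sgk1, 15.3 of Klf9 and 282 of Mt2A. Pck1 and Fkbp5 lay below the lowest of the 8 DMSO libraries, Mt2A above the highest, and the other 4 inside their range.

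Changes with dexamethasone were 0.09 for Tat (95% interval -0.33 to 0.51), 0.02 for Sgk1 (-0.51 to 0.56), 0.14 for Klf9 (-0.45 to 0.72) and 0.51 for Mt2A (-0.26 to 1.28), so that a rise of Tat beyond 0.51 lay outside its interval. They were -0.78 for Pck1 (-1.54 to -0.01), -0.64 for Igfbp1 (-1.35 to 0.06) and -0.64 for Fkbp5 (-1.05 to -0.23, adjusted p = 0.671). Dexamethasone was on plate 3, whose DMSO libraries averaged 702 CPM of Igfbp1 and 195 CPM of Mt2A. The library did differ from DMSO elsewhere: 12 probes (0.109%) were called, 11 higher and 1 lower. Cyp3a1, a drug-metabolising P450, had 3425 CPM with dexamethasone and 476 ± 63.7 CPM in DMSO (SD, n = 8; adjusted p = 7.18e-05), and Ugt2b1, a glucuronosyltransferase, 438 CPM and 58.1 ± 16.5 CPM. The transcript of the receptor itself, Nr3c1, was at 22.2 CPM with dexamethasone and 22.6 ± 5.79 CPM in DMSO (SD, n = 8). None of the genes in the 7 lists given further on was called with dexamethasone, and the median over 15 other glucocorticoid-induced genes was -0.46.

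17beta-estradiol, the main oestrogen, was called for Pck1 alone among all 11055 probes (0.00905%), at 28.7 CPM against 3.59 to 5.40 CPM in DMSO. The change was 2.61 ± 0.27 (SE, adjusted p = 0.0275). It had an adjusted p of 0.0682 to 0.38 without any 1 of DMSO replicates 2, 3, 4, 6, 7, 8 and 9, and of 0.564 with all 9 DMSO libraries. Testosterone, with 0% of probes and 0 of the 7 genes called by edgeR (3 at an unadjusted p under 0.05) and 0 by DESeq2, had 2.37 CPM of Pck1, below the DMSO range.

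GW 4046 had 4 of the 7 genes called, with 0.968% of probes. Pck1 was at 27.7 CPM and Sgk1 at 109.7 CPM, against 3.59 to 5.40 and 27.5 to 42.4 CPM in DMSO, so both lay far above. The changes were 2.68 ± 0.30 for Pck1 (SE, adjusted p = 0.00758) and 1.67 ± 0.19 for Sgk1 (adjusted p = 0.0138). Igfbp1 at 145 CPM and Fkbp5 at 237 CPM lay far below their DMSO ranges, with changes of -1.97 (adjusted p = 0.0388) and -1.40 (adjusted p = 0.0138). Sgk1 did not pass without DMSO replicate 4 or 8 (0.0592 and 0.0564), nor Fkbp5 (0.0554 and 0.0551), and Igfbp1 had an adjusted p of 0.0583 to 0.0891 without any 1 of replicates 2, 3, 4, 6, 7, 8 and 9. With all 9 DMSO libraries none of the 4 passed (adjusted p = 0.322 to 0.703). The library held 21886 CPM of hepatocyte markers.

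Oltipraz, an activator of the stress regulator NRF2, was called for Igfbp1, which was at 119.8 CPM against 353 to 755 CPM in DMSO. The change was -2.32 ± 0.29 (SE, adjusted p = 0.0138, 1.28% of probes called) and the adjusted p was 0.52 with all 9 DMSO libraries. Pregnenolone-16alpha-carbonitrile, a ligand of the rodent receptor PXR, was called for Fkbp5 at 252 CPM and Tat at 41.4 CPM, both below every DMSO library. The changes were -1.36 for Fkbp5 (adjusted p = 0.0132) and -1.08 for Tat (adjusted p = 0.0403), with 1.48% of probes called. With all 9 DMSO libraries the adjusted p was 0.634 and 0.909, and Tat did not pass without any 1 of DMSO replicates 2, 3, 4, 6, 7, 8 and 9 (0.0527 to 0.111). These 2 libraries held 18422 and 17195 CPM of hepatocyte markers.

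Sulforaphane, another activator of NRF2, had 6 of the 7 genes called, beside 28.3% of all probes, and had the lowest total of all libraries, 582071 counts. Mt2A was at 871 CPM (change 3.43, adjusted p = 0.000172), Pck1 at 25.8 CPM (3.09, adjusted p = 0.000905), Klf9 at 39.5 CPM (1.75, adjusted p = 0.00398) and Sgk1 at 58.4 CPM (1.27, adjusted p = 0.0105). These 4 lay above every DMSO library. Tat at 25.8 CPM (-1.198, adjusted p = 0.0109) and Fkbp5 at 242 CPM (-0.85, adjusted p = 0.00994) lay below every one, against the median over all probes of -1.07. With all 9 DMSO libraries Pck1 (adjusted p = 0.00539) and Mt2A (0.00245) passed, and Tat (0.415), Fkbp5 (0.143), Sgk1 (0.0547) and Klf9 (0.134) did not. Stellate and bile duct markers summed to 72.2 and 127 CPM in this library, against at most 14.7 and 29.2 CPM in DMSO, and the part of depth and of these markers was not tested. Neither TCPOBOP (0.0181% of probes called) nor WY-14,643 (0.498%) had any of the 7 called by edgeR, with 0 and 2 at an unadjusted p under 0.05. DESeq2 called 0 with TCPOBOP and 2 with WY-14,643, namely Igfbp1 at 216 CPM and Fkbp5 at 315 CPM, both below every one of the 8 DMSO libraries.

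**Figure D5:**
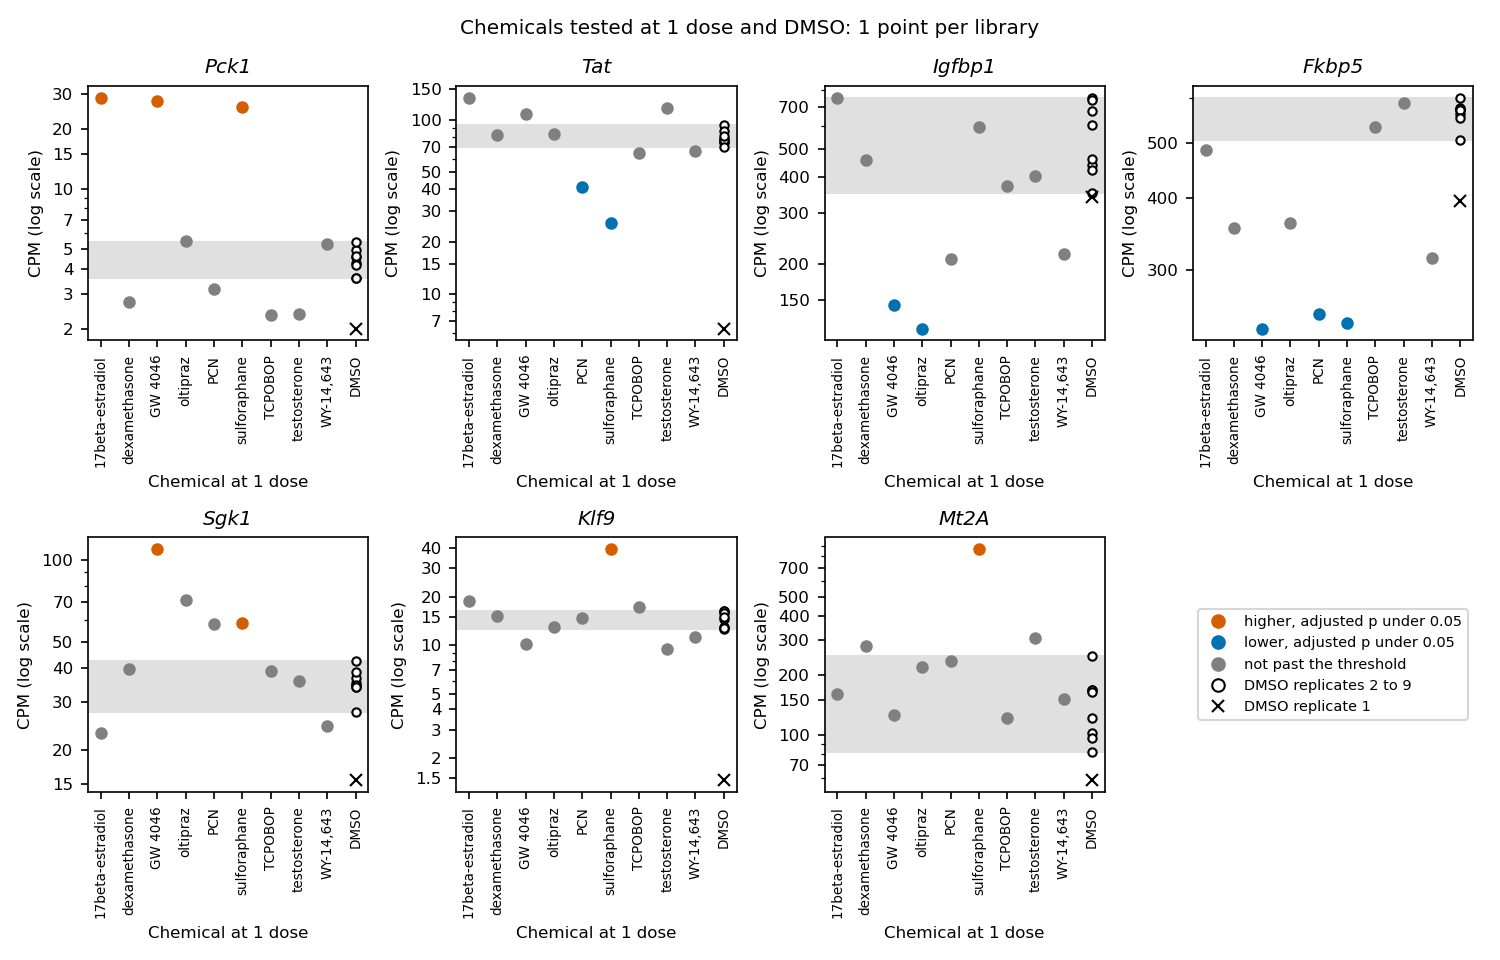
CPM on log axes of each of the 7 genes in the 9 reference libraries and then in DMSO, with orange for called higher, blue for called lower and grey for not called, open circles for DMSO replicates 2 to 9 and a cross for DMSO replicate 1. PCN stands for pregnenolone-16alpha-carbonitrile, and Pck1 stands at 25.8 to 28.7 CPM with sulforaphane, GW 4046 and 17beta-estradiol, above the DMSO libraries.

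The other genes of these pathways were read from 7 lists, and each count is set beside the 1.66% of all probes called over the dose trends. Of 12 tested gluconeogenic enzymes, 6 pairs of a gene and a chemical were higher and 22 lower among 348 (8.05%). Slc37a4, the glucose-6-phosphate transporter, fell in 6 chemicals and Fbp1, fructose-1,6-bisphosphatase, in 5. Fbp1 rose in 2, PFOA (1.19, adjusted p = 0.000645) and S-Bioallethrin. G6pc, the last enzyme of glucose release, fell with triflumizole (-3.45, adjusted p = 0.0256).

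Of 17 regulators of gluconeogenesis, 6 pairs were higher and 13 lower among 493 (3.85%). Pdk4, which inhibits pyruvate dehydrogenase, rose in 3 chemicals, PFOA (3.53, adjusted p = 0.000355), dithiopyr (3.19, adjusted p = 0.000148) and S-Bioallethrin (2.36, adjusted p = 0.000184), and Pfkfb1, which sets the level of fructose-2,6-bisphosphate, fell in 6. Of 11 genes of the receptor's machinery, 1 pair was higher and 6 lower among 319 (2.19%). Hsd11b1, which regenerates active glucocorticoid inside the cell, made 5 of the 6 falls, such as -1.36 with dithiopyr (adjusted p = 0.000846). Of 15 other glucocorticoid-induced genes, 8 pairs were higher and 15 lower among 435 (5.29%). Lpin1, a phosphatidate phosphatase, fell in 6 chemicals, such as -3.57 with dithiopyr (adjusted p = 1.50e-05).

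Of 15 clock genes, 7 pairs were higher and 2 lower among 435 (2.07%), and Cry1, a clock repressor, rose by 2.73 with imazalil (adjusted p = 0.0241). Cry1 was at 0.858 CPM in DMSO (0.189 to 1.50), under the filter of 1.74 CPM in every DMSO library. It passed the filter through treated libraries alone, so its call is not free of that selection. Of 5 metal-responsive genes, 8 pairs were higher and 6 lower among 145 (9.66%). Hmox1, the haem oxygenase induced by stress, made 6 of the rises, and Mt1a, the other metallothionein, rose in 2, cyproconazole (1.82) and PFOA (1.86). Of 4 genes of insulin-like growth factor binding, 0 pairs were higher and 4 lower among 116 (3.45%). All 4 were of Igfals, which carries the growth factors in blood, such as -1.60 with cyproconazole (adjusted p = 0.00413).

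In the reference libraries the enzymes made 3 rises and 10 falls among 108 pairs, the regulators 3 and 9 among 153, the machinery 4 and 1 among 99 and the other induced genes 3 and 9 among 135, beside 3.63% of all pairs. Clock genes made 2 and 2 among 135, metal-responsive genes 2 and 2 among 45, and growth factor binding 0 and 1 among 36. All calls of the machinery, the clock genes and the metal-responsive genes came from the sulforaphane library. Without it, the enzymes made 1 rise and 7 falls, the regulators 1 and 3, the other induced genes 1 and 4, growth factor binding 0 and 1, and the remaining 3 lists none. With oltipraz, where Igfbp1 was called lower, Lpin1 changed by -2.78 (adjusted p = 0.0025). With WY-14,643, an agonist of PPAR-alpha, Pdk4 rose by 4.56 (adjusted p = 5.40e-05) and Fbp1 by 1.09 (adjusted p = 0.0151), while Pck1 was at 5.33 CPM, inside the DMSO range.

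The probes that moved most like each gene were ranked over the 182 dose and DMSO libraries, DMSO replicate 1 left out, by Pearson's r of log2 CPM, among probes with a mean count of at least 50. These libraries share plates and depth effects, so the values are descriptions. Mt2A was followed most closely by Mt10.7, as the file spells it (r = 0.85, Spearman's rho = 0.84), and by Mt1a (0.75 and 0.76), both metallothionein symbols; RefSeq gives Mt1a as a synonym of Mt1, whose start with its 6 metal response cores is printed above beside the 4 of Mt2A. Whether these 3 probes also capture each other's transcripts was not tested. Igfbp1 was followed by Spns2 (0.79 and 0.78), a sphingosine phosphate transporter, and Fkbp5 by C1s (0.76 and 0.56), a complement protease. For Sgk1 (Cdr2, r = 0.67), Tat (Akr1c14, 0.65), Pck1 (ste2, 0.59) and Klf9 (Itpkc, 0.58) the closest probe followed more loosely. Among the 7 genes themselves the strongest values were lower, at r = 0.44 for Pck1 with Mt2A (rho = 0.39), -0.42 for Fkbp5 with Mt2A (-0.37) and 0.36 for both Igfbp1 with Mt2A (0.47) and Tat with Fkbp5 (0.15).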

How the data were processed

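Rat hepatocyte RNA was measured with TempO-Seq in the libraries described above. The authors deposited 1 table of raw read counts per probe, whole numbers with no normalization, per the file headers and the values; Bowtie is named in the submitters' processing notes, and its version is not given in the sources used here. No pair of DMSO libraries agreed within sampling noise (chi-square over its degrees of freedom was at least 3.12). CPM is the count over the library total. Probes with at least 10 counts at the median depth (1.74 CPM) in at least 6 libraries were tested with edgeR 4.0.16 in R 4.3.3 (TMM, a quasi-likelihood F test with a term for plate, Benjamini-Hochberg over 11055 probes, threshold 0.05), with DESeq2 1.42.0 as an alternative. Intervals are 95%. Groups came from the chemical, dose and plate labels, and DMSO replicate 1 was left out of the main fits. On simulated counts the dose trend recovered 42 of 100 changes of log2 size 1 and 100 of 100 of size 2, and the reference test 21 and 99 of 100. The changed genes of that simulation were drawn from probes with DMSO levels above those of Pck1 and Klf9. Its recovery therefore does not carry over to Pck1 or Klf9. Members and gene lists were chosen with earlier results of these data known. Beside the members, up to 4 genes per comparison were to be named from the lists, those called with the smallest adjusted p, and the 3 probes most alike; Mt1a is named outside that rule. A read count covers counting error only, and alternatives were other controls, scalings, tests, filters, dose scores and left-out libraries. Some genes of the lists are not reported here by name.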

Additional observations from a re-analysis of the deposited data

Results flagged for a closer look

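DMSO replicate 1 lay far from the other 8 DMSO libraries for 3 of the 7 genes, as the gap to its nearest neighbour was a large part of the whole range of the 9 libraries. Tat was at 6.36 CPM in it, against 70.0 to 93.2 CPM in DMSO replicates 2 to 9. Fkbp5 was at 395 CPM, against 506 to 600 CPM. Klf9 was at 1.45 CPM, against 12.5 to 16.4 CPM. These values are CPM without TMM scaling, and the TMM factor of this library was 0.547. Chance flags about 1 in 20 groups by this measure, and the 3 flags are of the same library.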

How the results depend on the processing

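Of the 36 calls of a gene, 4 held in every alternative run for their kind of comparison. These were Fkbp5 with dithiopyr and over the azoles, Mt2A with sulforaphane, and Sgk1 between PFOA and PFOS. Another 32 were lost in at least 1, and 1 reversed, Mt2A with cyproconazole at -0.083 without the highest dose. The fits over dose libraries alone, without a lower dose or with the library score were run for dose trends only. Over dose trends, against 15 calls, there were 4 with all 9 DMSO libraries (all 4 among the 15), 29 with DESeq2's test (all 15 kept), 25 with no plate term (14 kept), 3 without the highest dose (1 kept), 30 with the library score as a covariate (14 kept), 7 over dose libraries alone (4 kept; an alternative chosen after seeing the data), and 10 to 19 when DMSO libraries were left out in turn. In reference libraries, against 14 calls, there were 2 with all 9 DMSO libraries (both kept) and 9 to 20 when 1 was left out. Over classes, against 5 calls, there were 2 without the highest dose (1 kept) and 4 to 5 when a DMSO library was left out. Between related chemicals, against 2 calls, there were 1 with all 9 DMSO libraries, 1 with the dose as a rank, 1 without the highest dose and 1 to 2 when a DMSO library was left out. With all 9 DMSO libraries 11 of the 36 calls kept their side of the threshold, and with DESeq2's test 34, the 2 lost being Pck1 and Tat with sulforaphane. Mt2A with imazalil was also lost with the library score as a covariate. The cause was not tested in any of these. The means of the 7 genes over DMSO replicates 2 to 9 moved by less than 1 SD when scaled by TMM. The factors of these libraries were 0.943 to 1.04, so a small move was near certain. Factors were 0.547 in DMSO replicate 1, 0.76 at 100 µM PFOA and 0.764 with sulforaphane. That check does not cover the CPM values quoted for these libraries. No gene had another probe to try. Pck1, at 12 to 46 counts in DMSO, is limited by depth. No paired analysis was possible because DMSO replicate numbers mark plates and the chemicals have 1 library a dose.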
